A study of Mus musculus with 29 samples.

Results

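H3K27me3 in RAW264.7 cells after 1 h of lipopolysaccharide (LPS) was compared with H3K27me3 in untreated RAW264.7 cells. Every broad peak of the 2 lists on chromosomes 1 to 19 and X was a member, which gave 66283 peaks from the LPS 1 h library and 66659 from the untreated library. These are 132942 of the 1190714 peaks in the 26 peak lists of the series. RAW264.7 is a macrophage-like mouse line transformed by the Abelson murine leukaemia virus, so both groups come from 1 transformed line and not from primary macrophages. The LPS 1 h cells received 100 ng/ml LPS and the untreated cells received none, and chromatin of both was immunoprecipitated with the same H3K27me3 antibody and sequenced. The other histone marks used below (H3K4me1, H3K4me3, H3K27ac, H3K36me2, H3K36me3 and H3K79me2) were profiled in the same conditions, and PU.1 in untreated cells. Each mark and condition has 1 library, so no difference has a replicate check and no p-value is given.

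H3K27me3 is written by Polycomb repressive complex 2, whose catalytic subunit is EZH2 or EZH1, and it marks silent developmental and lineage-foreign genes. Its EED subunit binds the mark it has written, and through this the mark can extend over neighbouring nucleosomes into broad domains. The demethylases KDM6A and KDM6B remove it, and KDM6B is known as an LPS-induced gene of macrophages. H3K27ac occupies the same lysine and marks active promoters and enhancers. H3K4me1 and H3K4me3 lie at enhancers and promoters, while H3K36me2, H3K36me3 and H3K79me2 lie over active or transcribed chromatin. H3K36 methylation is known to hinder Polycomb repressive complex 2 on the same histone tail.

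Sequencing depth is unknown, and depth sets how many broad peaks are called, so the part of depth in each count below was not tested. The deposited fold enrichment of the peaks was low in each library, with a median of 1.43 at LPS 1 h and 1.51 in untreated cells. Among 37868 peaks that overlapped one to one, the widths of the 2 libraries correlated with a Spearman rho of 0.863, while the deposited fold enrichments correlated with 0.246. These are correlations across peaks, which are not independent replicates. Positions and widths are therefore described below, and fold enrichment is given only beside single regions.

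H3K27me3 peaks covered 380.55 Mb at LPS 1 h and 362.54 Mb in untreated cells, a difference of 18.01 Mb. The length common to both lists was 322.64 Mb, which is 84.8% of the LPS 1 h length and 89.0% of the untreated length. Median peak width was 2753 bp at LPS 1 h and 2621 bp in untreated cells. The difference was spread over the genome: each of the 20 chromosomes held more peak length at LPS 1 h than in untreated cells, with ratios from 1.03 on chromosome X to 1.09 on chromosome 18. Gained peaks outnumbered lost peaks on 19 of the 20, X being the exception.

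Behind the net difference lay 57.9 Mb covered at LPS 1 h alone and 39.9 Mb covered in untreated cells alone. Whole gained peaks made up 12.8 Mb (22.1%) of the LPS 1 h length, gaps closed inside a joined peak 15.01 Mb (25.9%), and shifted edges of overlapping peaks 30.1 Mb (51.9%). The untreated length split in nearly the same proportions, with 8.83 Mb (22.1%) in whole lost peaks, 9.23 Mb (23.1%) in gaps that opened and 21.8 Mb (54.7%) in edges. Most of the length that differed thus bordered H3K27me3 present in both lists.

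**Figure D1:**
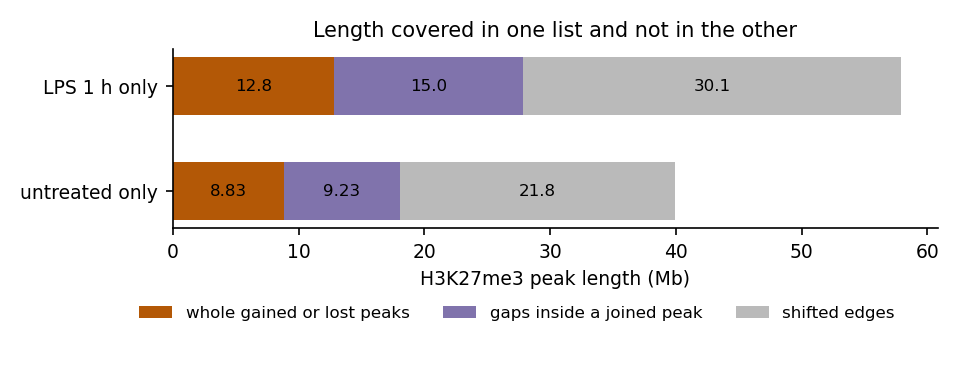
H3K27me3 peak length in Mb found in 1 list and not in the other, for LPS 1 h (top) and untreated (bottom), split into whole gained or lost peaks, gaps inside a joined peak and shifted edges. Edges are the longest part of both bars, 30.1 Mb at LPS 1 h and 21.8 Mb in untreated cells.

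A gained peak is an LPS 1 h peak with no base in common with an untreated peak, and a lost peak is an untreated peak with none in common with an LPS 1 h peak. There were 11916 gained peaks, 18% of the LPS 1 h list, and 9068 lost peaks, 13.6% of the untreated list. Both sets were narrow, with a median width of 884 bp for gained peaks against 3654 bp for kept peaks of the LPS 1 h list. Lost peaks had a median width of 806.5 bp, against 3233 bp for kept peaks of the untreated list. The gained share was 60.8% (95% Wilson interval 59.4 to 62.2) of LPS 1 h peaks under 500 bp, 47.2% from 500 bp to 1 kb, 29.6% from 1 to 2 kb and 6.37% from 2 to 5 kb. Over 5 kb it was 0.147%, which is 31 of 21155 peaks. The lost share followed the same order, at 48.9% (47.5 to 50.3), 36.4%, 20.5%, 3.11% and 0.0937%, the last being 19 of 20286 peaks. In every class but the widest the gained share lay above the lost share, with intervals that do not overlap and that cover counting error only. The peaks over 5 kb hold 76.8% of the LPS 1 h length and 75.3% of the untreated length. With few exceptions these broad domains shared at least 1 base with a peak of the other list. A wider peak meets that rule more easily, and the part of this in the decline with width was not tested. The excess of gains is absent where both lists keep only peaks whose deposited −log10 q reaches 5, with 5584 gained and 5617 lost. These are 69.3% of the 8054 LPS 1 h peaks and 68.2% of the 8233 untreated peaks that reach it, against 18% and 13.6% of the full lists. The −log10 q of one-to-one peaks correlated with a Spearman rho of 0.286. Of the peaks gained and lost under this threshold, 3949 (70.7%) and 4345 (77.4%) overlap a peak of the other full list that lies below it.

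**Figure D2:**
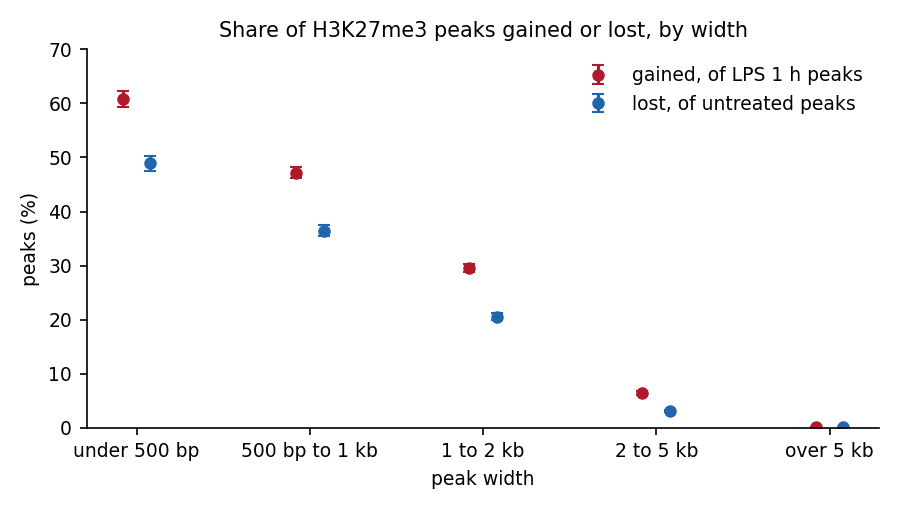
Share in percent of LPS 1 h peaks that were gained and of untreated peaks that were lost, in 5 classes of peak width, with 95% Wilson intervals. Both shares decline with width, and the gained share is 60.8% against a lost share of 48.9% under 500 bp and 6.37% against 3.11% from 2 to 5 kb.

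Neighbouring peaks were joined more often than single peaks were split. An LPS 1 h peak lay over 2 or more untreated peaks in 7486 cases, 11.3% of the LPS 1 h list, and an untreated peak lay over 2 or more LPS 1 h peaks in 5176 cases, 7.76% of the untreated list. In 83.9% of the joining peaks (6284) exactly 2 untreated peaks were involved, and the largest number was 7. That peak, chr3:102551588-102607146 (55559 bp, mm9), had H3K27me3 over 92.6% of its bases at LPS 4 h and over 79.4% without LPS. The next, chr4:154656956-154795529 and chr6:88625380-88762409, joined 6 untreated peaks each and were already covered over 94.6% and 93.9% of their bases without LPS. The untreated peaks that broke into most pieces at LPS 1 h had 5 pieces each. Of these, chr2:113173198-113218106 kept 87.8% of its length, chr2:181436340-181472558 kept 83.0% and chr12:104299503-104323763 kept 72.8%. Thus even the most fragmented domains differed in a minor part of their length.

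One-to-one pairs were widened at least 1.5 times in 6999 cases, 18.5% of 37868, and narrowed at least 1.5 times in 4573, 12.1%. The median ratio of LPS 1 h to untreated width was 1.02. Of 75736 edges, 53.3% lay further out at LPS 1 h and 46.5% further in, with a median shift of 27 bp outward and a median size of 309 bp in either direction. Both edges lay further out in 28.0% of pairs and further in in 21.3%. When pairs were grouped by the geometric mean of their 2 widths, so that neither list set the class, the median ratio was 1.06 under 500 bp, 1.12 from 500 bp to 1 kb, 1.09 from 1 to 2 kb, 1.04 from 2 to 5 kb and 1.004 over 5 kb. Both directions were frequent among narrow pairs, with 38.2% widened and 29.6% narrowed from 500 bp to 1 kb. Of the 590 pairs under 500 bp, 24.9% were widened and 16.1% narrowed. Over 5 kb 1.99% were widened and 0.859% narrowed, so the broadest pairs had nearly equal widths.

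The greatest single additions were 2 peaks of about the same size. At chr2:60529529-60539178 the LPS 1 h peak was 9650 bp wide and the untreated peak 1173 bp, and 82.4% of the LPS 1 h peak was covered at 4 h. At chr8:12945052-12954671 the widths were 9620 bp at LPS 1 h and 1435 bp in untreated cells, with 87.0% covered at 4 h. The third, chr16:38891622-38904885, was 13264 bp at LPS 1 h and 5118 bp in untreated cells and also carried H3K4me1, over 22.6% of its length at LPS 1 h and 17.2% in untreated cells. H3K27me3 peaks covered 59.7% of it at 4 h. The greatest reductions were at chr3:115793067-115805027 (3578 bp at LPS 1 h, 11961 bp in untreated cells), chr3:104480199-104489504 (3069 and 9306 bp) and chr1:109379509-109386511 (851 and 7003 bp). At 4 h H3K27me3 peaks covered 42.1%, 71.0% and 52.1% of these untreated peaks. The last of these lay largely within H3K36me2, which covered 68.6% of it before LPS, 33.7% after 1 h and 67.9% after 4 h. In the untreated segmentation, described below, the H3K27me3 state 19 covered 80.6% of the chromosome 8 addition and 48.9% of that on chromosome 16. The chromosome 2 addition was 95.9% in state 27, which is poor in every mark. State 27 also covered 75.5%, 74.2% and 69.9% of the 3 reductions in untreated cells, and 74.9%, 72.0% and 64.1% at LPS 1 h.

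Gaps between untreated peaks were closed in 8967 of 66639 cases (13.5%), and gaps of the LPS 1 h list were closed in the untreated list in 5743 of 66263 (8.67%). Closed gaps were short. Their median was 1488 bp at LPS 1 h, against 4981 bp for untreated gaps not closed, and the longest was 6656 bp. No 2 peaks of a list lay closer than 1201 bp at LPS 1 h and 1193 bp in untreated cells, so a gap just above that length is the shortest the lists can hold. Of untreated gaps under 1.5 kb, 50.2% (49.2 to 51.2) were closed at LPS 1 h, and the share was 30.8% from 1.5 to 2 kb, 12.7% from 2 to 3 kb, 3.33% from 3 to 5 kb and 0.147% from 5 to 10 kb. Of the closed gaps, 71.1% (70.2 to 72.1) were also fully covered by H3K27me3 peaks at 4 h. Among gaps under 1.5 kb this was 76.6% of those closed at 1 h and 43.4% of those still open at 1 h.

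Active marks in a gap went with a lower rate of closing. Untreated gaps under 1.5 kb that held any of the 6 other histone marks in untreated cells were closed at LPS 1 h in 30.9% (28.4 to 33.6) of 1177 cases, against 53.0% (51.9 to 54.1) of 7988 without such a mark. From 1.5 to 2 kb the shares were 13.4% and 34.3%, and from 2 to 3 kb 3.81% and 15.2%. H3K27ac gaps were closed least, in 16.9% (11.4 to 24.3) of 130 gaps under 1.5 kb and 5.08% of 256 gaps from 1.5 to 2 kb. For H3K4me3 the shares were 27.6% of 250 and 7.73% of 375 gaps, and for H3K36me2 26.03% of 146 and 15.8% of 190. Gaps with a PU.1 peak, the factor that sets up macrophage enhancers, were closed in 34.5% of 1142 and 15.4% of 1545 cases. The reverse comparison had another form: LPS 1 h gaps under 1.5 kb were closed in the untreated list in 42.6% (39.8 to 45.4) of cases with an active mark at LPS 1 h and 35.3% (34.3 to 36.4) without, from 1.5 to 2 kb in 19.4% and 19.6%, and from 2 to 3 kb in 6.13% and 7.29%. The gaps that were closed at LPS 1 h were thus poorer in active marks than open gaps of their length class. The gaps that were closed in untreated cells alone were not so below 2 kb. From 2 to 3 kb the intervals of the reverse comparison overlap, at 5.20 to 7.22 with a mark and 6.72 to 7.91 without.

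**Figure D3:**
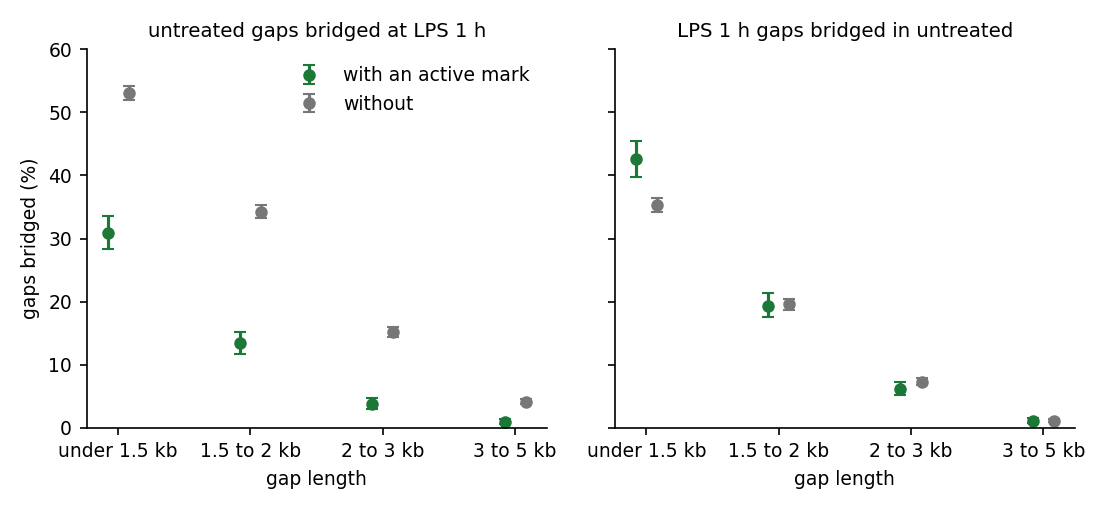
Share in percent of gaps between neighbouring H3K27me3 peaks that a peak of the other list closed, by gap length, with 95% Wilson intervals. Left, untreated gaps closed at LPS 1 h with or without any of 6 active marks in untreated cells (30.9% and 53.0% under 1.5 kb); right, LPS 1 h gaps closed in untreated cells with or without such a mark at LPS 1 h (42.6% and 35.3%).

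Gained peaks lay near existing H3K27me3, though their median distance was greater than that between neighbouring untreated peaks. The median distance from a gained peak to the nearest untreated peak was 3185.5 bp, and 62.9% (62.0 to 63.8) lay within 5 kb and 95.9% within 50 kb. Lost peaks lay a median 2648 bp from the nearest LPS 1 h peak, with 68.1% within 5 kb. An untreated peak lay a median 2148 bp from its nearest untreated neighbour, with 78.0% within 5 kb. Distance to broad domains was greater: to the nearest untreated peak of at least 5 kb the median was 30079.5 bp for gained peaks, with 17.1% within 5 kb. Of the gained peaks, 21.7% had an untreated peak within 5 kb on both sides, 41.2% on 1 side and 37.1% on neither. By width of the gain, the median distance was 2983 bp under 500 bp, 3197 bp from 500 bp to 1 kb, 3315 bp from 1 to 2 kb, 3094 bp from 2 to 5 kb and 3916 bp for the 31 peaks over 5 kb. Where both lists keep only peaks whose −log10 q reaches 5, the median distance is 81467.5 bp, with 12.4% of the untreated list left as neighbours.

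A distance of over 50 kb was found for 493 gained peaks (4.14%), against 3.54% of lost peaks from the nearest LPS 1 h peak and 1.78% of untreated peaks from their nearest untreated neighbour. Of those at least 2 kb wide, the most distant was chr1:42314132-42318909 (4778 bp), which lay 296707 bp from an untreated peak and was covered over 46.8% of its length at 4 h. The next were chr9:101641832-101644524, at 167198 bp, and chr1:7393766-7396604, at 150588 bp, covered over 43.3% and 46.0% at 4 h. No other histone mark was found in these 3 intervals at any time.

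The authors' 27-state chromatin segmentations of LPS 1 h and untreated cells describe the same places from the same libraries, so they are not independent of the lists. States 18, 19 and 20 are those rich in H3K27me3 peaks, with H3K4me1 in state 18, without another mark in state 19 and with H3K4me3 in state 20. They covered 349.5 Mb at LPS 1 h and 291.1 Mb in untreated cells, a difference of 58.4 Mb, which is in the same direction as that of the lists and greater. Kept peaks of the LPS 1 h list lay in these states over 87.1% of their length at LPS 1 h and 73.7% in untreated cells. Kept peaks of the untreated list did so over 84.8% at LPS 1 h and 78.3% in untreated cells, so intervals called in both libraries were also given more H3K27me3 states at LPS 1 h.

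Gained peaks lay in H3K27me3 states over 38.8% of their length at LPS 1 h and 3.30% in untreated cells. Lost peaks did so over 9.91% at LPS 1 h and 19.1% in untreated cells. The remainder was mostly state 27, in which each of the 7 histone marks covered less than 5% of the length. Counted by peak, 4390 gained peaks (36.8%, 36.0 to 37.7) were at least 50% in H3K27me3 states at LPS 1 h and not in untreated cells, and 67 (0.562%) the other way round. Of the lost peaks, 401 (4.42%) were so at LPS 1 h alone and 1404 (15.5%, 14.8 to 16.2) in untreated cells alone. The direction of each set is thus the same in both kinds of file, but 60.7% of gained and 76.3% of lost peaks were under 50% in such states in both segmentations. The 4390 gains that both kinds of file show were present at 4 h in 70.05% (68.7 to 71.4) of cases, against 61.0% (59.9 to 62.1) of the 7234 gains under 50% in both.

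Several of the widest gains and losses were clustered, and many were in H3K27me3 states in both segmentations. Of the 31 gained peaks over 5 kb, 13 (41.9%) were at least 50% in those states at LPS 1 h alone, 10 (32.3%) in both conditions, 0 in untreated cells alone and 8 in neither. Of the 19 lost ones, 3 were so at LPS 1 h alone, 7 in both conditions, 0 in untreated cells alone and 9 in neither. Of the 31 gained and 19 lost peaks over 5 kb, 7 gained and 4 lost fell within 780 kb of chromosome 8 (chr8:46559626-47339845), and 4 gained and 3 lost within 939 kb of chromosome 1 (chr1:165237392-166176570). In the chromosome 8 interval the deposited fold enrichment had a median of 1.10 at LPS 1 h and 1.06 in untreated cells, below the medians of the whole lists. H3K27me3 peaks covered 12.1% of it at LPS 1 h and 9.16% in untreated cells, while H3K27me3 states covered 25.8% and 20.7%. The widest gained peak, chr8:47318003-47339845 (21843 bp), was in state 19 over 95.2% of its bases at LPS 1 h and also over 88.8% in untreated cells, and no peak was called there at 4 h. The next, chr8:47016238-47032957 (16720 bp) and chr8:47034606-47051265 (16660 bp), were in state 19 over 97.6% and 100.0% at LPS 1 h and over 100.0% and 92.4% in untreated cells, and had no peak at 4 h either. The others of the 5 widest were chr1:155966536-155977179 (10644 bp), in state 19 over 97.5% at LPS 1 h and 70.1% in untreated cells, and chr8:46987378-46996529 (9152 bp), in state 19 over 85.2% at LPS 1 h and mainly in state 27 (53.9%) in untreated cells.

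The widest lost peak, chr1:166129254-166153930 (24677 bp), was in state 19 over 96.8% of its bases both at LPS 1 h and in untreated cells. The next were chr8:46819607-46837482 (17876 bp), chr1:166161280-166176570 (15291 bp), chr8:46746110-46758559 (12450 bp) and chr8:46896943-46909296 (12354 bp). State 19 covered 70.5%, 96.1%, 95.5% and 100.0% of these at LPS 1 h, and 69.3%, 89.7%, 53.0% and 99.5% in untreated cells. Each of the 5 was covered again by H3K27me3 peaks at 4 h, over 85.9% to 100.0% of its length. For the 10 gained and 7 lost peaks over 5 kb that were at least 50% in such states in both conditions, the lists report a gain or a loss where the segmentations give H3K27me3 states over at least 50% of the interval each time, and the cause was not tested. All peaks over 5 kb that were gained or lost, 31 and 19, are few beside the 11916 gained and 9068 lost peaks.

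**Figure D4:**
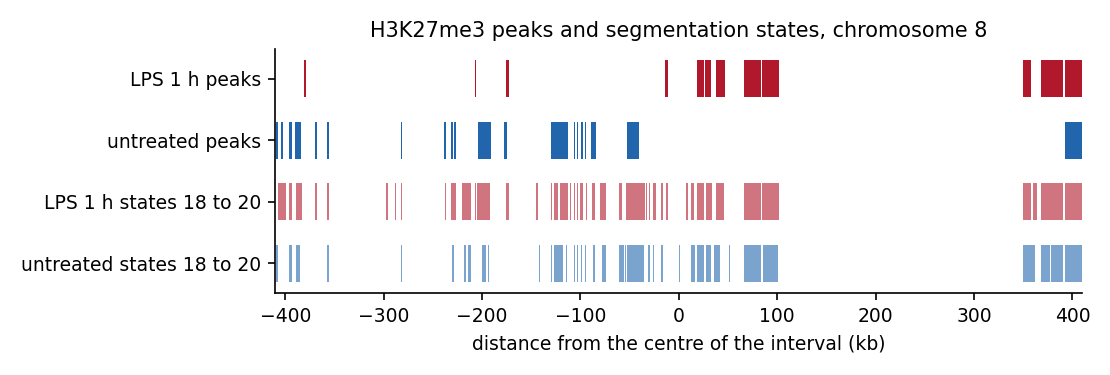
H3K27me3 peaks and H3K27me3 states (18 to 20) at LPS 1 h (rows in red) and in untreated cells (rows in blue) along the 780 kb interval of chromosome 8 with 7 gained and 4 lost peaks over 5 kb, plotted as distance in kb from its centre. Several blocks are peaks in 1 list only and states in both segmentations.

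Counted together, the 6 other histone marks were less frequent at lost than at kept untreated peaks over all widths. This was not so within the width classes under 5 kb, and single marks differed, as given below. Any of the 6 other histone marks overlapped 893 of 9068 lost peaks at LPS 1 h, 9.85% (9.25 to 10.5), against 18.3% (18.03 to 18.7) of 57591 kept untreated peaks. In the untreated lists of those marks the shares were 9.78% of lost and 18.1% of kept peaks. Kept peaks are wider and can meet more marks, so lost and kept peaks were also compared within width classes. There the order turned, with any of the 6 marks at LPS 1 h in 7.92% (6.90 to 9.07) of lost and 5.38% (4.56 to 6.33) of kept peaks under 500 bp and 10.1% (9.10 to 11.2) and 5.94% (5.35 to 6.59) from 500 bp to 1 kb. From 1 to 2 kb the shares were 10.04% (8.99 to 11.2) of lost and 8.51% (8.01 to 9.05) of kept peaks, and from 2 to 5 kb 14.9% (12.3 to 18.04) and 13.4% (12.9 to 13.9), with intervals that overlap in both classes. Over 5 kb 5 of 19 lost peaks (26.3%) and 33.2% of kept peaks held such a mark. These kept peaks were classed by untreated width. Kept peaks of the LPS 1 h list, classed by LPS 1 h width, held such a mark in 9.30% (8.04 to 10.7) of cases under 500 bp, above the 7.92% of lost peaks. In the following classes up to 5 kb they did so in 9.10%, 9.77% and 13.4%, below the lost peaks. Of the lost peaks with a mark, 410 held H3K36me2 alone, 264 H3K4me1 alone and 115 both.

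Among the 6 marks, H3K36me2 had the greatest excess at lost over kept peaks. It overlapped 560 lost peaks at LPS 1 h, 6.18% (5.70 to 6.69), against 4.33% (4.16 to 4.50) of kept untreated peaks. Within width classes the contrast was wider: 4.61% of lost and 2.41% of kept peaks under 500 bp, 6.44% and 2.64% from 500 bp to 1 kb, 6.28% and 3.14% from 1 to 2 kb, and 10.3% and 4.26% from 2 to 5 kb. Kept peaks of the LPS 1 h list held it in 4.74% under 500 bp, near the lost share, and in 3.96% to 4.39% in the other classes under 5 kb. By length, H3K36me2 covered 5.03% of the lost peaks and 1.11% of the kept ones. Counted by peak, gained peaks stood on the other side, with H3K36me2 at LPS 1 h in 2.96% (2.67 to 3.28) of gained and 4.56% (4.39 to 4.74) of kept LPS 1 h peaks. By length the order was the opposite, with H3K36me2 over 2.01% of the gained and 0.977% of the kept LPS 1 h length. Most of the H3K36me2 at lost peaks was there without LPS: 431 lost peaks held it in both conditions, 129 at LPS 1 h alone and 74 in untreated cells alone. Lost peaks under 50% in H3K27me3 states in both segmentations held H3K36me2 in 7.47% (6.87 to 8.11) of cases, and those at least 50% in such states in untreated cells alone in 2.35% (1.68 to 3.28). The difference between lost and kept peaks was 1.85 percentage points over all widths and 3.33 within width classes. Under 2 settings its sign turned: it was −0.167 where the −log10 q reached 5 and −3.06 with H3K27me3 peaks merged within 5 kb.

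H3K4me1 overlapped 4.84% (4.42 to 5.30) of lost and 15.02% (14.7 to 15.3) of kept untreated peaks at LPS 1 h, but within width classes the order was not the same throughout. The shares were 3.94% of lost and 2.93% of kept peaks under 500 bp, 4.52% and 3.71% from 500 bp to 1 kb, 5.12% and 5.73% from 1 to 2 kb, and 8.40% and 10.1% from 2 to 5 kb. Kept peaks of the LPS 1 h list, classed by LPS 1 h width, held H3K4me1 in 5.30%, 5.82%, 6.50% and 9.84%. These shares lie above those of lost peaks in each class under 5 kb, with intervals that overlap except from 1 to 2 kb. Gained peaks held H3K4me1 less often than kept LPS 1 h peaks in each class under 5 kb, from 2.14% against 5.30% under 500 bp to 2.84% against 9.84% from 2 to 5 kb. PU.1 peaks lay in 2.03% of lost and 12.8% of kept untreated peaks, a difference of −10.7 percentage points, which was 0.267 within width classes. H3K4me3 was in 0.551% of lost and 4.09% of kept peaks, a difference of −3.53 percentage points, which was −0.312 within width classes. Under 500 bp H3K4me3 was in 0.671% (0.413 to 1.09) of lost and 0.481% (0.276 to 0.840) of kept peaks, with intervals that overlap. From 500 bp to 1 kb it was in 0.557% and 0.727%, again with intervals that overlap. The lost share was lower from 1 to 2 kb, at 0.386% (0.216 to 0.690) against 1.02% (0.852 to 1.23). From 2 to 5 kb it was 0.686% (0.267 to 1.75) against 2.14% (1.94 to 2.36). The intervals do not overlap in these wider classes. H3K36me3 and H3K79me2 were rare in both, at 0.232% and 0.176% of lost peaks against 0.194% and 0.137% of kept ones.

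**Figure D5:**
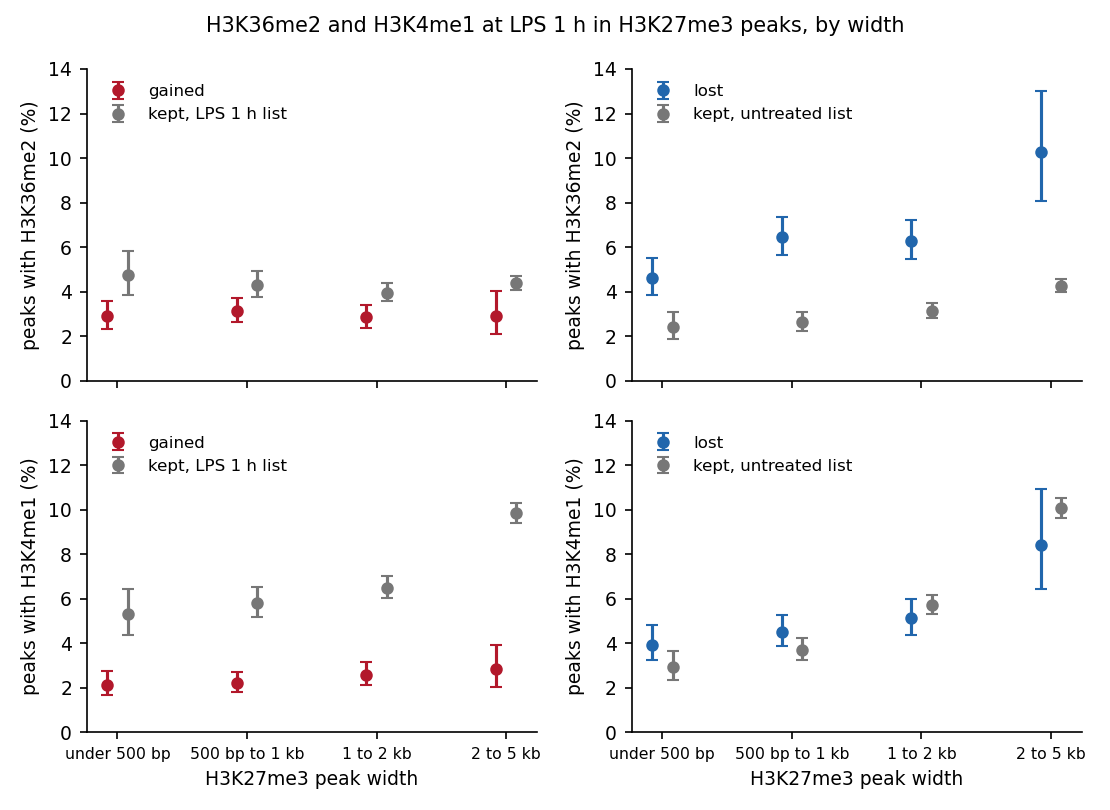
Share in percent of H3K27me3 peaks that overlap H3K36me2 (top) or H3K4me1 (bottom) at LPS 1 h, by peak width up to 5 kb, with 95% Wilson intervals. Gained peaks stand against kept LPS 1 h peaks on the left, and lost against kept untreated peaks on the right; H3K36me2 lies at 10.3% of lost and 4.26% of kept peaks from 2 to 5 kb.

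H3K27ac, which cannot share a histone tail's lysine with H3K27me3, was rare at lost peaks. It overlapped 43 of 9068 at LPS 1 h, 0.474% (0.352 to 0.638), against 1.29% (1.20 to 1.39) of kept untreated peaks. The difference was −0.819 percentage points over all widths and 0.142 within width classes. Of the lost peaks 30 had H3K27ac at LPS 1 h alone, 25 in untreated cells alone and 13 in both, so peaks that lost H3K27me3 with an H3K27ac peak called at LPS 1 h alone were 0.331% of the losses. Among kept untreated peaks 353 (0.613%) had H3K27ac at LPS 1 h alone and 459 (0.797%) in untreated cells alone.

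Among the lost peaks with most H3K27ac at LPS 1 h, the widest was chr11:83350464-83353829 (3366 bp). No H3K27me3 peak was called in this interval at 1 h or 4 h. H3K27ac covered none of it in untreated cells and 100% at 1 h and at 4 h. H3K4me1 covered 2.91% before LPS, 29.7% after 1 h and 100.0% after 4 h, and H3K36me2 covered 2.17%, 28.2% and 100.0%. The segmentation put it wholly in state 27 in untreated cells, so the H3K27me3 there was in the list but not in a state, and its deposited fold enrichment was 1.18. At chr9:119912282-119913489 (1208 bp) and chr16:38365160-38365934 (775 bp), H3K4me1 covered the whole interval at each time, and H3K27ac covered none in untreated cells and 100% at 1 h and at 4 h. No H3K27me3 peak was there at 1 h or 4 h, and the untreated segmentation gave state 18 over 90.1% of the interval on chromosome 9 and state 19 over 68.9% of that on chromosome 16. At chr15:25342132-25343403 (1272 bp) and chr11:69614994-69615824 (831 bp), H3K4me3 and H3K27ac covered the whole interval before LPS and after both 1 h and 4 h, so neither mark differed there.

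Counted by length and not by peak, untreated-only H3K27me3 held more of each active mark than LPS 1 h-only H3K27me3 did. H3K4me1 at LPS 1 h covered 2.38% of the LPS 1 h-only length and 5.58% of the untreated-only length, beside 2.62% of the shared length. H3K36me2 covered 1.48% and 3.41%, beside 0.928% of the shared length, H3K4me3 0.268% and 0.699%, and H3K27ac 0.0968% and 0.484%. With the untreated lists of the same marks the direction was the same, at 2.23% and 6.03% for H3K4me1, 0.995% and 2.96% for H3K36me2 and 0.122% and 0.459% for H3K27ac.

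At 4 h of LPS many of the differences were no longer as they had been at 1 h. Of the gained peaks, 64.6% (63.7 to 65.4) overlapped an H3K27me3 peak at 4 h, against 95.7% (95.6 to 95.9) of kept LPS 1 h peaks, and 50.0% of the gained length was covered. Of the lost peaks, 58.7% (57.6 to 59.7) had a peak again at 4 h. Of the kept untreated peaks, which were not lost at 1 h, 95.6% had a peak at 4 h. Below 5 kb presence at 4 h increased with width, from 54.8% of gained peaks under 500 bp to 89.1% (87.2 to 90.7) from 2 to 5 kb, and from 48.4% to 82.3% of lost peaks. Presence needs 1 shared base, which a wider peak meets more easily. By covered length the increase was smaller, from 46.2% of the gained length under 500 bp to 58.4% from 2 to 5 kb. For lost peaks the covered length was 40.1% and 53.9% in these classes. Over 5 kb it was 64.5% (46.9 to 78.9) of the 31 gained peaks, with 37.1% of their length covered, and 18 of the 19 lost peaks (94.7%). Kept LPS 1 h peaks of the same classes were present in 72.2% and 98.5%. Among gained peaks found at 4 h, 2103 of 7694 (27.3%) were then part of a peak that also overlapped an untreated peak.

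Over the 3 libraries together, overlapping peaks formed merged regions that can be sorted by where H3K27me3 was called. Regions with a peak in all 3 libraries numbered 42305 and held 431.7 Mb. A peak at 1 h and 4 h but not in untreated cells was found in 5452 regions (11.4 Mb), and one at 1 h alone in 4218 (3.71 Mb). A peak in untreated cells alone was found in 3745 regions (3.04 Mb), and 3519 (7.04 Mb) had one in untreated cells and at 4 h but not at 1 h. A further 14002 regions (14.9 Mb) had a peak at 4 h alone. The 4 h library covered 424.79 Mb, more than the others, so presence at 4 h is easier to meet than presence at 1 h.

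Set beside the other histone marks in the same 2 conditions, H3K27me3 was the mark with the second highest share of gained peaks, 18% against 20.4% for H3K36me2 and 5.69% to 16.6% for the other 5. Its lost share, 13.6%, lay between that of H3K27ac, 18.8%, and those of the other 5 marks, 7.85% to 10.9%. Joining LPS 1 h peaks were 11.3% of the H3K27me3 list, 15.996% of the H3K36me2 list and 0.435% to 9.20% of the others. Widened pairs were 18.5% for H3K27me3 and 24.8% for H3K36me2. H3K36me2, which covered 39.4 Mb more at LPS 1 h than in untreated cells, thus had a larger excess of gains over losses than H3K27me3, and H3K27me3 had high shares in both directions. By share H3K79me2 also had a larger excess than H3K27me3, with 16.6% of its peaks gained and 9.24% lost.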

How the data were processed

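Chromatin of RAW264.7 cells was immunoprecipitated and sequenced on Illumina instruments, per the labels' protocols. The submitters' processing notes name Bowtie 1.0.1 as aligner, mm9 as genome build and MACS2 as peak caller. Its version, settings, control and pooling, and the read numbers, remain not given in the sources used here. For each peak the authors deposited a fold enrichment (a ratio over background), a −log10 p, a −log10 q and a score. A segmentation with 27 states, in steps of 200 bp, was also deposited for LPS 1 h and untreated cells.

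Peaks on chromosomes 1 to 19 and X counted as overlapping when they shared 1 bp or more. Peaks linked by overlaps formed groups: gained, lost, one-to-one, merged, split and many-to-many. Pairs were called widened or narrowed at a width ratio of 1.5. The intervals beside shares are 95% Wilson intervals and cover counting error alone. Within width classes, differences were weighted by the lost peaks of each class. A cluster of wide changes was at least 4 gained or lost peaks over 5 kb with gaps of at most 1 Mb, and its definition was chosen after its peaks were seen. The named regions were the 5 widest gained and lost peaks, the 3 that joined most or were split into most peaks, the 3 largest added and removed widths, the 3 most distant gains of at least 2 kb and the 5 lost peaks with most H3K27ac. The members, lists and rules were chosen with earlier results of these data known.

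Coordinates are 1-based mm9 positions. No mm9 genome or annotation was used here, so no gene is named, no sequence is printed, and the planned gene lists and cell type markers were not run. Alternatives were a −log10 q of at least 5, 50% of a peak covered, peaks of at least 1 kb, equal numbers of the widest peaks, all sequences, other width ratios, broad untreated peaks only, merging within 1 kb and, added after the data were seen, within 5 kb. Python 3.11.15, numpy 2.4.6, pandas 2.3.3, scipy 1.17.1 and matplotlib 3.10.9 were used. The comparison was tested on simulated peak lists.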

Additional observations from a re-analysis of the deposited data

How the results depend on the processing

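No paired analysis was possible because each group has 1 library and the labels give no replicate numbers. Of 102 recomputed values, 41 stayed within the limits set for them, 52 moved and 9 turned in sign. The 41 include every value under merging within 1 kb, where no change was possible. They also include the 8642 gained peaks found with peaks of at least 1 kb, against 11916 in the main comparison. With a −log10 q of at least 5, 5584 peaks were gained and 5617 lost, the length difference was 0.375 Mb, 290 LPS 1 h peaks joined untreated peaks, 169 untreated peaks were split, 389 pairs widened and 291 narrowed, and the median distance of gains was 81467.5 bp with 12.4% within 5 kb. With peaks of at least 1 kb, 8642 peaks were gained and 5999 lost, 5643 joined and 3969 split, and the length difference was 18.4 Mb. At this setting 4489 pairs widened and 2654 narrowed, and the distance was 4558.5 bp with 52.9% within 5 kb. With H3K27me3 peaks merged within 5 kb, chosen after seeing the data, 4634 peaks were gained and 3594 lost, 2332 joined, 1505 split, 3402 widened and 2250 narrowed, and the distance was 9186 bp with 22.98% within 5 kb. Merging within 1 kb changed no value, since the peaks of a list lie further apart.

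With 50% coverage, 19648 peaks were gained and 14950 lost, and 49.0% of gained and 43.6% of lost peaks were present at 4 h. Equal numbers of the widest peaks gave a distance of 3203 bp, and all sequences a length difference of 18.012 Mb. The lower width ratio tried gave 7235 narrowed pairs, and a ratio of 2 gave 3918 widened and 2417 narrowed. To untreated peaks of at least 5 kb the distance was 30079.5 bp, with 17.1% within 5 kb.

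The differences in percentage points between lost and kept peaks changed as follows. At a −log10 q of at least 5 they were −1.95 for H3K4me1, −1.37 for H3K4me3, −0.19 for H3K27ac, −0.167 for H3K36me2 and −2.56 for PU.1. With peaks of at least 1 kb they were −7.09 for H3K4me1, −2.16 for H3K4me3, −0.495 for H3K27ac, −0.00695 for H3K79me2 and −11.6 for PU.1. After merging within 5 kb they were −24.7 for H3K4me1, −10.97 for H3K4me3, −5.42 for H3K27ac, −3.06 for H3K36me2, −0.0389 for H3K36me3, −0.0193 for H3K79me2 and −27.7 for PU.1. Within the same width class they were 0.241 for H3K4me1, −0.312 for H3K4me3, 0.142 for H3K27ac, 3.33 for H3K36me2 and 0.267 for PU.1. By share of the length they were −0.18 for H3K4me1, −0.33 for H3K4me3, 0.0235 for H3K27ac, 3.93 for H3K36me2 and −0.572 for PU.1. The causes were not tested. Depth is unknown and limits every count of peaks.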

Other observations

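Gained H3K27me3 peaks lay further from active chromatin than kept peaks did, and lost peaks lay in between. The median distance to the nearest H3K4me1 peak at LPS 1 h was 26210 bp for gained and 8086 bp for kept LPS 1 h peaks, and 20085 bp for lost and 9240 bp for kept untreated peaks. To the nearest H3K4me3 peak at LPS 1 h it was 69808.5 bp for gained and 33835 bp for kept LPS 1 h peaks, and 60234.5 bp for lost and 35411 bp for kept untreated peaks. The nearest H3K27ac peak at LPS 1 h stood 81669.5 bp from gained and 38151 bp from kept LPS 1 h peaks, and 67768 bp from lost and 40064 bp from kept untreated peaks. Kept peaks are wider, which shortens their distance to anything, and distances were not compared within width classes.

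The segmentations differed from each other only partly in the places where the peak lists differed. H3K27me3 states found at LPS 1 h alone covered 84.2 Mb, of which 32.6% lay in peak length of the LPS 1 h list alone, 4.05% in peak length of the untreated list alone, 46.9% in peak length of both lists and 16.4% outside the peaks of either. States found in untreated cells alone covered 25.7 Mb, of which 33.8% lay in peak length of the untreated list alone, 4.15% in that of the LPS 1 h list alone, 46.2% in peak length of both lists and 15.9% outside the peaks of either. States found in both covered 265.4 Mb, and 95.6% of that lay in peak length of both lists.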
